A study of Mus musculus with 12 samples.

Results

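The genes described here are the core of hepatic *de novo* lipogenesis and its main regulators, 10 in number, followed across livers with and without hepatocyte *Marchf6*. They were chosen by name and by function. The transcription factors were *Srebf1* and *Mlxipl*, the genes of acetyl-CoA supply were *Slc25a1*, *Acly* and *Acss2*, the genes of malonyl-CoA turnover were *Acaca*, *Acacb* and *Mlycd*, and the genes of palmitate synthesis were *Fasn* and *Thrsp*. All 10 were found among the 54232 genes of the count table, and all 10 were among the 17509 genes that were tested, namely those whose count exceeded 2 in 6 or more livers.

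The study asked how loss of MARCHF6, a ubiquitin ligase of the endoplasmic reticulum membrane, changes lipid metabolism in the liver, and sequenced mRNA from whole livers. The 6 WT and 6 *Marchf6* LKO (LKO) animals were male C57Bl/6J mice aged 10 weeks, kept on standard chow and fasted for 4 h. By the study's methods, LKO mice were *Marchf6* fl/fl and carried Cre under the albumin promoter, and their WT littermates were *Marchf6* fl/fl without Cre, so that both groups bore the floxed allele. Each library came from 1 mouse, with 50 ng of input RNA, and the labels give separate mice for all 12 libraries. The study describes this knockout as hepatocyte-specific, and whether other liver cells of LKO mice kept the gene was not tested here. The labels name exon 2 as the deleted exon, whereas the methods name the third exon in one sentence and exon 2 in another. Library numbers were lower for every WT mouse than for any LKO mouse, so the order of the libraries and the genotype cannot be told apart. Total counts per liver ran from 14860414 to 22111926, and the group medians were 15884818 (WT) and 17893575 (LKO).

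*Marchf6* itself (ENSMUSG00000039100, chromosome 15 of GRCm38, 31455891 to 31531053, minus strand) was read first, in CPM, read counts scaled to library size, after scaling by the trimmed mean of M-values (normalized CPM). Its levels were 226, 244, 247, 247, 235 and 245 in WT replicates 1 to 6. They were 204, 230, 211, 224, 249 and 236 in LKO replicates 1 to 6. The groups overlapped, with a difference of −0.09 on the log2 scale (SE 0.060, adjusted p = 0.585 by edgeR's quasi-likelihood test). The count covers every exon of the gene, of which the allele loses 1, so it neither checks the labels nor separates the groups.

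In *de novo* lipogenesis, citrate leaves the mitochondrion and is split in the cytosol to acetyl-CoA, which is carboxylated to malonyl-CoA and then built into palmitate. In the liver the pathway is active after feeding, when insulin acts through SREBP-1c, the main hepatic product of *Srebf1*, and glucose acts through ChREBP, the product of *Mlxipl*. Both factors also act on each other's targets, and their activity depends on processing or modification of the protein, which mRNA counts do not show.

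Across these genes LKO livers tended to higher means, but the spread between livers of one genotype was large. The log2 fold change was above 0 for 8 of the 10 genes, or for 9 under scalings that moved *Mlycd* across 0, with a median of 0.27 against 0.00016 over all genes tested. This median was 0.12 without WT replicate 6 and 0.18 without LKO replicate 4, and it was 0.39 without WT replicate 3. With edgeR's quasi-likelihood test, 0 of the 10 were called at an adjusted p under 0.05, against 75 of 17509 genes tested (0.428%). At an unadjusted p under 0.05 there were 2, *Acacb* and *Acss2*, both higher in LKO livers, against 11.7% of all genes. With limma voom, 0 of the 10 were called (0.485% of all genes) and 2 had an unadjusted p under 0.05. With DESeq2, 1 of the 10 was called, *Acacb* (2.17% of the genes with an adjusted p), and 2 had an unadjusted p under 0.05. The 11.7% is the share by edgeR. The share of all genes at an unadjusted p under 0.05 is not given here for limma voom or DESeq2. In none of the 10 did every LKO liver lie above or below every WT liver, as was the case for 1.30% of the genes tested. The summed CPM of 8 hepatocyte markers, of which *Alb* was the most abundant, was lower than the WT mean in 6 of 6 LKO livers (113100 ± 8681 in WT and 102200 ± 3846 in LKO livers, SD, n = 6). *Alb* made up most of the sum, 76080 CPM in WT livers, and was at −0.18 on the log2 scale. *Ahsg* (−0.22) and *Cps1* (−0.17) were also below 0, whereas *Ttr* (0.09) was above it and *Cyp2e1* was near it (0.02, and −0.02 without WT replicate 2). None of the 8 was called by edgeR, and 2 were lower at an unadjusted p under 0.05. *Cps1* was at −0.10 without LKO replicate 1 and *Ttr* at 0.06 without WT replicate 6. The share of counts from mitochondrial genes was 5.84% to 6.15% in WT and 6.19% to 6.735% in LKO livers, with no overlap. The part of the markers and of the mitochondrial share in the results below was not tested.

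**Figure D1:**
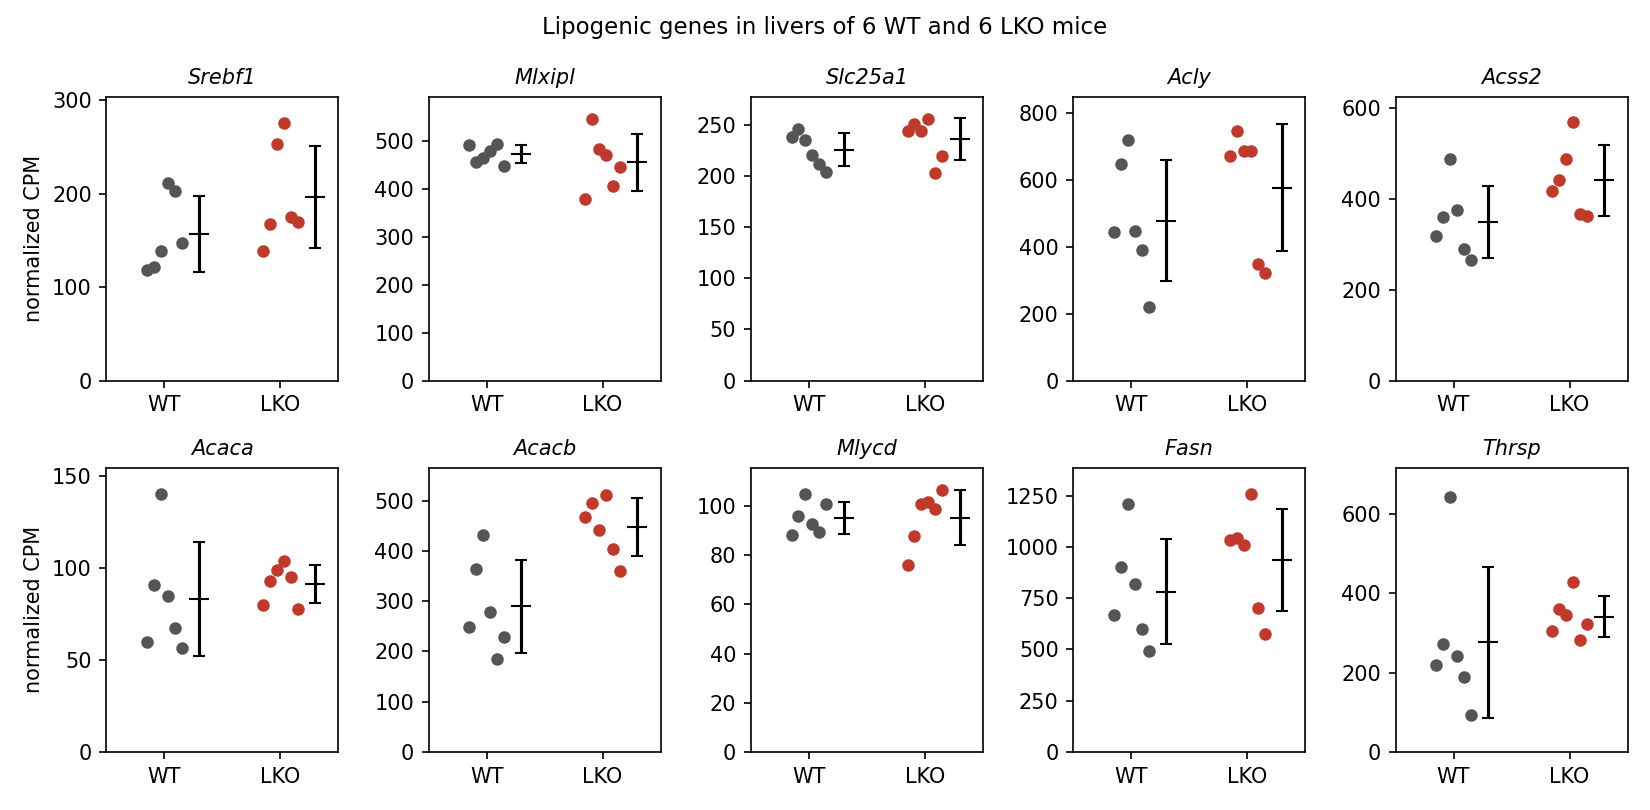
Normalized CPM of the 10 lipogenic genes, with 1 point per liver for 6 WT (grey) and 6 LKO (red) mice, and the mean with its SD in black. The groups overlapped for every gene, and for *Acacb* 4 of 6 LKO livers lay above the highest WT liver.

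Per kb of exon, *Thrsp* had the highest mean level in WT livers, at 126 CPM per kb, and *Slc25a1* followed at 104 CPM per kb. *Acly* was at 90.4, *Mlxipl* at 85.3 and *Fasn* at 71.4 CPM per kb. *Acss2*, *Mlycd*, *Acacb* and *Srebf1* lay close together, between 27.8 and 34.4 CPM per kb. *Acaca* was the lowest of the 10, at 4.87 CPM per kb. The exon lengths are those of all annotated transcripts joined, 17074 nt for *Acaca* and 2189 nt for *Thrsp*, so a gene with rarely used exons is set lower on this scale.

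*Srebf1*, which encodes SREBP-1, ran from 118 to 212 normalized CPM with a median of 143 in WT livers, and from 139 to 276 with a median of 173 in LKO livers. The groups overlapped: 5 of 6 LKO livers were above the WT mean, but only LKO replicates 3 and 4 were above the highest WT liver. Its log2 fold change was 0.33 (standard error, SE, 0.186, adjusted p = 0.524 by edgeR). Left out in turn, LKO replicate 4 gave the lowest value, 0.21, and WT replicate 4 the highest, 0.43. The gene lies on the minus strand of chromosome 11, 60199089 to 60222581, and the count sums transcripts from its alternative first exons, so SREBP-1a and SREBP-1c forms were not separated. Of its 5634 exonic nt, 109 are shared with *Rai1* on the other strand and 66 with *Mir6922*.

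*Mlxipl*, which encodes ChREBP, was the steadiest of the 10 among WT livers, with a coefficient of variation of 3.94%. Its level ran from 449 to 493 normalized CPM in WT livers (median 472) and from 378 to 546 in LKO livers (median 459). Its exons share 235 of 5538 nt with *Gm43500* on the other strand. LKO replicates lay both above and below the whole WT range, and the log2 fold change was −0.05 (SE 0.081, adjusted p = 0.855 by edgeR). It was −0.11 without LKO replicate 2 and −0.005 without LKO replicate 1. The number of *Srebf1* reads per *Mlxipl* read ran from 0.240 to 0.441 in WT and from 0.307 to 0.587 in LKO livers. The mean log2 ratio was 0.39 higher in LKO livers, with 5 of 6 above the WT mean (exact permutation test with every assignment of livers to groups, two-sided p = 0.0866, adjusted p = 0.133 over the 6 ratios tested).

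Among the genes of acetyl-CoA supply, *Acss2* and *Acly* varied widely between livers and *Slc25a1* did not. *Slc25a1*, the mitochondrial citrate carrier, stayed between 203 and 256 normalized CPM over all 12 livers, with a difference between the genotypes of 0.07 on the log2 scale (SE 0.072, adjusted p = 0.776 by edgeR) that was 0.04 without WT replicate 6 and 0.11 without LKO replicate 5. *Acly*, ATP citrate lyase, ran from 220 to 719 normalized CPM in WT livers (median 444) and from 320 to 745 in LKO livers (median 678). LKO livers formed 4 between 672 and 745 and 2, replicates 5 and 6, at 348 and 320, below the WT median. The log2 fold change of *Acly* was 0.27 (SE 0.269, adjusted p = 0.747 by edgeR), and it went from 0.12 without WT replicate 6 to 0.42 without WT replicate 3.

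*Acss2*, the cytosolic acetyl-CoA synthetase that uses acetate, ran from 265 to 487 normalized CPM in WT livers with a median of 339. In LKO livers it ran from 362 to 569 with a median of 429. All 6 LKO livers were above the WT mean of 349 ± 79.4 (SD, n = 6), but only 1 was above the highest WT liver. For *Acss2* the log2 fold change was 0.33 (SE 0.144), with an unadjusted p of 0.0350 and an adjusted p of 0.377 by edgeR. Exons of *Acss2* overlap those of *Gss*, *Ggt7* and *Acss2os* on the other strand by 395, 197 and 335 of 10163 nt. The strand setting of the counting is not given in the sources used here, so reads of such overlaps cannot be told apart. *Acly* reads per *Acss2* read did not separate the groups (log2 difference −0.06, exact permutation p = 0.805, higher in 3 of 6).

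None of the genes of malonyl-CoA turnover was called by edgeR, and the ratio of both carboxylases was the 1 of 6 ratios to pass its test. *Acacb* encodes acetyl-CoA carboxylase 2, whose malonyl-CoA at the mitochondrion restrains fatty acid oxidation. It ran from 185 to 433 normalized CPM in WT livers (median 264) and from 361 to 512.5 in LKO livers (median 455). All 6 LKO livers were above the WT mean and 4 were above the highest WT liver, replicate 3. The mean was 290 ± 92.0 in WT and 447 ± 57.4 in LKO livers (SD, n = 6), a fold difference of 1.54. This log2 difference of 0.63 (SE 0.172) had an unadjusted p of 0.00245 and an adjusted p of 0.139 by edgeR's quasi-likelihood test. By p, *Acacb* was at rank 308 among all genes tested. It passed the threshold with DESeq2 (0.62, adjusted p = 0.0294) and without WT replicate 3 (0.78, adjusted p = 0.0226 by edgeR, when 0.762% of all genes were called). Over the other alternatives its adjusted p by edgeR or limma voom was between 0.0503 and 0.268.

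*Acaca* encodes acetyl-CoA carboxylase 1, which makes malonyl-CoA for fatty acid synthesis in the cytosol. It ran from 56.4 to 140 normalized CPM in WT livers (median 76.1) and from 77.8 to 104 in LKO livers (median 94.0). The LKO livers lay wholly inside the WT range, all 6 above the WT median, and the highest liver of all was WT replicate 3. Its log2 fold change was 0.14 (SE 0.183, adjusted p = 0.832 by edgeR), and it was 0.35 without WT replicate 3 and 0.05 without WT replicate 6. *Mlycd*, the malonyl-CoA decarboxylase, ran from 76.2 to 106 normalized CPM over all livers. Its means were 95.3 ± 6.56 in WT and 95.3 ± 11.2 in LKO livers (SD, n = 6), and the sign of its difference turned with the scaling.

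Counts of *Acacb* and *Acaca* in the same library give a ratio that does not depend on the scaling between libraries. There were 4.17, 4.01, 3.09, 3.30, 2.74 and 4.05 *Acacb* reads per *Acaca* read in WT replicates 1 to 6. LKO replicates 1 to 6 had 5.84, 5.34, 4.47, 4.93, 4.26 and 4.64. The groups did not overlap: the lowest LKO liver, replicate 5, was just above the highest WT liver, replicate 1. The mean log2 ratio was 1.81 ± 0.25 in WT and 2.29 ± 0.17 in LKO livers (SD, n = 6), a difference of 0.47, higher in 6 of 6. The exact permutation test gave a two-sided p of 0.00216, the smallest that the possible assignments allow, and an adjusted p of 0.0130 over the 6 ratios. With any 1 liver left out the difference stayed between 0.40 and 0.52. Same-numbered livers taken as pairs, a pairing the study does not state, gave the same difference with an exact adjusted p of 0.0938 by sign flips. The smallest unadjusted p that 64 flips can give is 0.03125, so this form of the test could hardly pass over 6 ratios, and its p says nothing of stability. The summed markers of Kupffer cells had a higher mean in LKO than in WT livers, as given below, and the groups overlapped. Their part in this ratio was not tested.

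**Figure D2:**
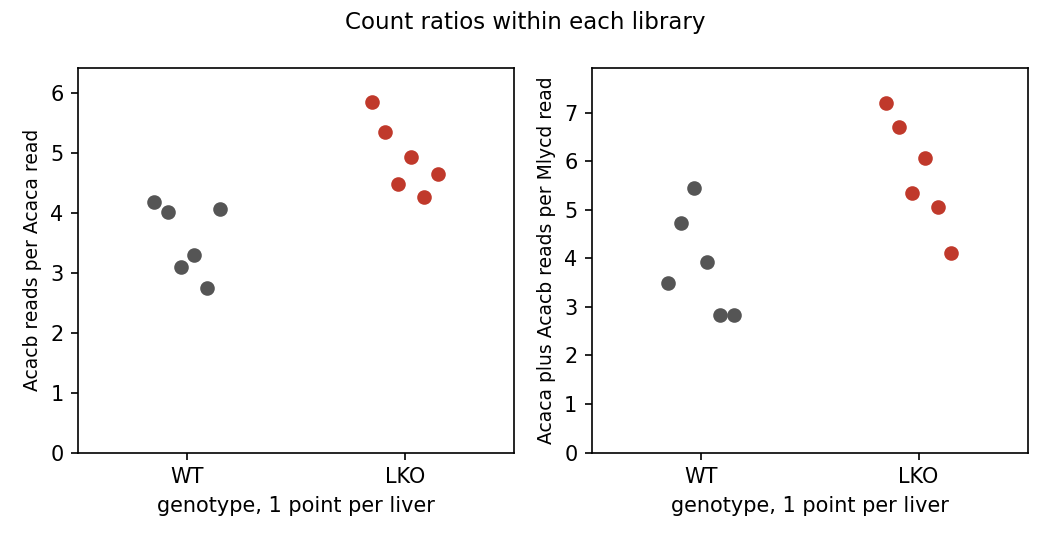
Reads of *Acacb* per read of *Acaca* (left) and reads of *Acaca* plus *Acacb* per read of *Mlycd* (right), with 1 point per liver for 6 WT (grey) and 6 LKO (red) mice. On the left the highest WT liver was at 4.17 and the lowest LKO liver at 4.26, and on the right the groups overlapped.

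Reads of both carboxylases per *Mlycd* read ran from 2.83 to 5.45 in WT livers and from 4.12 to 7.19 in LKO livers. The groups overlapped through WT replicates 2 and 3. The mean log2 ratio was 0.59 higher in LKO livers, above the WT mean in 6 of 6 (exact permutation test, two-sided p = 0.0195, adjusted p = 0.0584 over the 6 ratios). It passed the threshold without WT replicate 3 (0.70, exact adjusted p = 0.0173) and without LKO replicate 6 (0.68, exact adjusted p = 0.0455).

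*Fasn*, the fatty acid synthase, ran from 490 to 1209 normalized CPM in WT livers (median 744.5) and from 577 to 1257 in LKO livers (median 1021). The pattern over livers resembled that of *Acly*: WT replicate 3 was high, and WT replicate 6 and LKO replicates 5 and 6 were low. The log2 fold change was 0.26 (SE 0.214, adjusted p = 0.685 by edgeR), and 4 of 6 LKO livers exceeded the mean of WT livers. It was 0.43 without WT replicate 3 and 0.16 without WT replicate 6. *Fasn* reads per *Acaca* read differed by 0.07 on the log2 scale (exact permutation p = 0.641, higher in 4 of 6).

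*Thrsp*, also called Spot 14, is a nuclear and cytosolic protein of lipogenic cells that acts together with MIG12, the product of *Mid1ip1*, on acetyl-CoA carboxylase. It was the most variable of the 10, with a 6.91-fold range over the 12 livers. It ran from 92.8 to 641 normalized CPM in WT livers (median 230) and from 281.5 to 427.5 in LKO livers (median 333.5). All LKO livers lay inside the WT range, and both ends of that range were single WT livers, replicate 6 and replicate 3. The log2 fold change was 0.30 (SE 0.319, adjusted p = 0.765 by edgeR), and 0.53 both by limma voom and with the replicate number as a block. It was 0.75 without WT replicate 3 (adjusted p = 0.137 by edgeR) and 0.12 without WT replicate 6.

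*Thrsp* reads per *Mid1ip1* read were 2.98 to 25.9 in WT livers and 8.76 to 14.5 in LKO livers, so that the LKO values again lay inside the WT range. The mean log2 ratio was 0.86 higher in LKO livers, above the WT mean in 6 of 6 (exact permutation test, two-sided p = 0.0887, adjusted p = 0.133 over the 6 ratios). Without WT replicate 3 it was 1.24 (exact adjusted p = 0.0130).

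The spread between livers also differed from gene to gene. The coefficient of variation of *Thrsp* was 68.6% in WT and 15.1% in LKO livers. For *Acaca* it was 37.3% in WT and 11.4% in LKO livers, and for *Acacb* 31.8% and 12.8%. Other genes went the other way, with 3.94% in WT and 13.0% in LKO livers for *Mlxipl* and 6.88% and 11.8% for *Mlycd*. It was larger in WT than in LKO livers for 6 of the 10 genes, and a difference in spread was not tested. WT replicate 3 was the highest WT liver for 7 of the 10 genes and WT replicate 6 the lowest for 7. Among LKO livers, replicate 4 was the highest for 7 and replicate 6 the lowest for 5. Neither WT replicate 3 nor WT replicate 6 stood apart in total counts, which were 16556634 and 15213001. WT replicate 3 had the highest sum of hepatocyte markers, 128700 CPM, and WT replicate 6 the lowest among WT livers, 105200 CPM, and their part in these patterns was not tested.

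Within a genotype, the genes were next set against *Srebf1* in a fit that held the genotype and the log2 CPM of *Srebf1* of each liver, less the mean of its genotype. A slope of 1 means that a gene doubles where *Srebf1* doubles. None of the other 9 genes had a slope on *Srebf1* at an adjusted p under 0.05 by edgeR, against 62 of 17508 genes (0.354%), and none by limma voom. None had an unadjusted p under 0.05 by edgeR or limma voom either, against 15.0% of all genes by edgeR. Their median slope was 0.12 on the log2 scale, with 0.12 (SE 0.311) for *Fasn*, −0.06 (SE 0.390) for *Acly* and 0.22 (SE 0.205) for *Acss2*. These signs were not stable: *Fasn* was at −0.13 without LKO replicate 4, and with the replicate number as a block *Thrsp* was at −1.51, *Acacb* at −1.02, *Acaca* at −0.97, *Fasn* at −0.45 and *Acss2* at −0.32, none of them called. Without LKO replicate 4, *Acacb* (−0.38), *Thrsp* (−0.30), *Acly* (−0.24) and *Slc25a1* (−0.09) were below 0 as well. *Mlxipl* (0.15), *Mlycd* (0.11), *Acss2* (0.05) and *Acaca* (0.03) were then above it. The median of 0.12 therefore describes all 12 livers without the block, and it was not stable when 1 liver was left out. These errors are wide, so slopes of the size seen for other genes below could be missed for *Acly* and *Thrsp*.

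The 5 genes with the lowest p among positive slopes on *Srebf1* were *Aldh1b1* (0.84), *Slc46a3* (0.99), *Sult5a1* (1.47), *Snhg11* (1.02) and *Nipal3* (0.61), with adjusted p between 0.0151 and 0.0253 by edgeR. Of the 62 genes called, 34 had positive and 28 negative slopes. Far fewer genes were called with the replicate number as a block, as given at the end. Among the listed genes, *Mid1ip1* was called with a slope of 0.76 (adjusted p = 0.0473 by edgeR) and *Cidec* with a slope of −2.76 (adjusted p = 0.0470 by edgeR). The number of genes called fell to 0 without WT replicate 5 and without LKO replicate 4, to 2 without LKO replicate 3, to 5 without WT replicate 4, to 10 without WT replicate 2, to 12 without LKO replicate 1, to 29 without LKO replicate 2, to 40 without WT replicate 6 and to 41 without WT replicate 1, and it was 107 without WT replicate 3.

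*Srebf1* was also set beside genes of the circadian clock. Of 13 clock genes, 8 had a slope on *Srebf1* at an unadjusted p under 0.05, 5 positive and 3 negative, against 15.0% of all genes, and 0 passed the adjusted p by edgeR. *Dbp*, a clock output gene, was at 16.0 and 19.7 normalized CPM in WT replicates 1 and 2 and at 12.1 and 21.7 in LKO replicates 1 and 2. The other 8 livers lay between 60.8 and 76.8. *Arntl*, the opposite arm of the clock, was between 12.1 and 24.25 in those 4 livers and between 3.49 and 7.08 in the other 8. *Srebf1* was between 118 and 167 in those 4 livers and between 139 and 276 in the other 8. The livers with low *Dbp* were 2 of each genotype, and none of the 13 clock genes differed between the genotypes at an unadjusted p under 0.05. With *Dbp* as a further term, chosen after seeing the data, the log2 fold change of *Srebf1* was 0.31 (adjusted p = 0.282 by edgeR) and that of *Acacb* 0.63 (adjusted p = 0.0990 by edgeR).

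The genes were also set against *Fasn*, in a fit of the same form that was added after the slopes on *Srebf1* had been seen. *Acly* had a slope on *Fasn* of 1.23 (SE 0.143, adjusted p = 0.0114 by edgeR) and *Acss2* of 0.60 (SE 0.082, adjusted p = 0.0166 by edgeR). Only 5 of 17508 genes were called, all positive (0.0286%), and the other 3 were *Lpin1* (1.37), *Tmc7* (1.53) and *Rusc2* (0.62). *Acacb* (0.67), *Thrsp* (1.15), *Acaca* (0.66) and *Slc25a1* (0.21) had positive slopes with unadjusted p between 5.42e-05 and 0.0115 by edgeR. In all, 6 of the other 9 had a positive slope at an unadjusted p under 0.05, against 4.60% of all genes. The slopes of *Srebf1* (0.13), *Mlxipl* (0.06) and *Mlycd* (−0.03) on *Fasn* were within their errors.

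These slopes rest on few livers. The call of *Acly* was lost without WT replicate 6 (1.10, adjusted p = 0.0546 by edgeR). The call of *Acss2* was lost without WT replicate 1 (0.60, adjusted p = 0.0552), WT replicate 3 (0.55, adjusted p = 0.162), WT replicate 6 (0.60, adjusted p = 0.132), LKO replicate 4 (0.57, adjusted p = 0.1099) or LKO replicate 5 (0.60, adjusted p = 0.0661), all by edgeR. The slope of *Acaca* was 0.43 without WT replicate 3 (adjusted p = 0.438 by edgeR). That of *Thrsp* was 0.72 without WT replicate 3 and passed the threshold without LKO replicate 6 (1.54, adjusted p = 0.0389 by edgeR). The number of genes called was 1 without WT replicate 1, 3 or 6, 2 without LKO replicate 4 or 5, 8 without LKO replicate 2 and 9 without WT replicate 5. With the replicate number as a block, neither *Acly* (0.81, adjusted p = 0.774 by edgeR) nor *Acss2* (0.54, adjusted p = 0.791 by edgeR) was called. All genes in a library share its scaling, so a slope describes these livers and not a link between the genes.

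**Figure D3:**
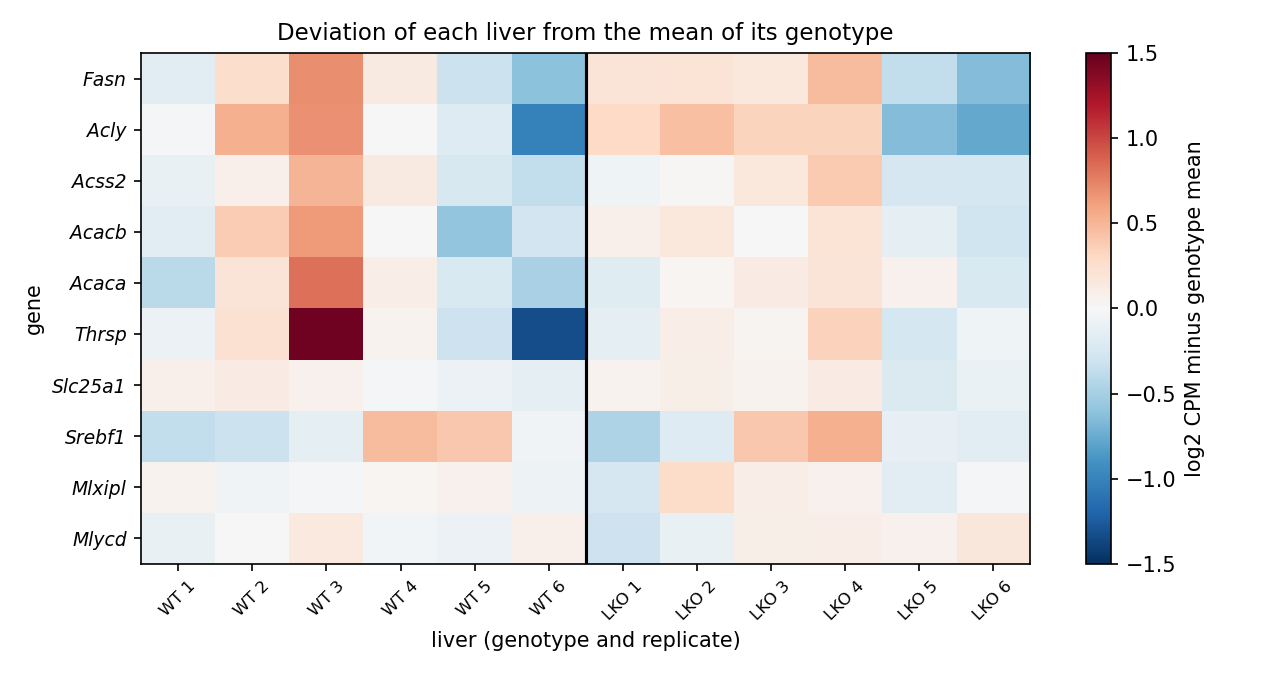
Log2 CPM of each of the 10 genes in each liver, less the mean of its genotype, for WT replicates 1 to 6 (left) and LKO replicates 1 to 6 (right); red is above and blue below the mean. *Fasn* and *Acly* were high in WT replicate 3 (0.69 for both) and low in WT replicate 6 (−0.61 and −1.02), whereas *Srebf1* was at −0.14 and −0.05 in these livers. In LKO replicate 4, *Fasn* (0.47) and *Srebf1* (0.53) were both at their highest among LKO livers.

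Because *Acly* and *Acss2* were those of the other 9 genes that passed the test of a slope on *Fasn*, the 150 bases before the RefSeq start of *Fasn* and of both these genes are shown, from the promoter windows of GRCm38.p6, 5′ to 3′ on the strand of the gene. Capitals mark CCAAT and GGGCGG on either strand, the letters of the CCAAT box bound by NF-Y and of the GC box bound by Sp1. The *Fasn* stretch (chr11:120824548-120824697, minus strand) holds 3 CCAAT matches, of which 2 overlap. The *Acly* stretch (chr11:100528001-100528150, minus strand) holds 4 GGGCGG matches. The *Acss2* stretch (chr2:155517893-155518042, plus strand) holds 1 CCAAT and 3 GGGCGG matches, and the GENCODE gene begins inside it, at 155517948.
Fasn: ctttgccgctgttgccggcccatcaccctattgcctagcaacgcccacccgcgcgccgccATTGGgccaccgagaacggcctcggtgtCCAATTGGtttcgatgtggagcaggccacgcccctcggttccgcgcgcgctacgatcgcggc
Acly: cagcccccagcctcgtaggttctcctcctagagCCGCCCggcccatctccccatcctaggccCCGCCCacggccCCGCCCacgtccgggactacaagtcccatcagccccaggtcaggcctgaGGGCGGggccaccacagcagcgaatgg
Acss2: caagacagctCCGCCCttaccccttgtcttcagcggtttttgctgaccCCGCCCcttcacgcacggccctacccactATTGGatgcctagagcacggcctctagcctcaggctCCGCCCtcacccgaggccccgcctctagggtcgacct

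All 10 genes had a promoter window in the RefSeq set, 13 windows in all, each from 250 bases before to 50 bases after a start. *Srebf1* had 3 of them, and in windows 2 and 3 the bases after the start were not found in a GENCODE transcript of the gene. The *Acaca* window, 84195188 to 84195487, lies inside the GENCODE gene, which begins at 84129672. CCAAT was found on either strand in 10 of the 13 windows, against 37.4% of 32851 windows of all genes, and GGGCGG in 6 of the 13, against 35.7%. By gene, CCAAT was found for 9 of the 10 and GGGCGG for 5 of the 10. The shares over all genes are by window only. The sterol regulatory element in the form TCACNCCAC was found in 1 of the 13, that of *Mlxipl*, against 1.24% of all windows. The E-box CACGTG, the core of the element that ChREBP binds in pairs, was found in 2 of the 13, those of *Mlxipl* and *Slc25a1*, against 7.15%. A match describes the letters of the window only, and elements outside it were not searched.

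Genes around the pathway were read from lists by function, 11 in all. Of the 8 genes that desaturate, elongate and esterify new fatty acids, 1 was called, *Pnpla3*, a lipid droplet protein whose gene responds to SREBP-1c and ChREBP. *Pnpla3* was at 0.386 to 2.67 normalized CPM in WT and at 2.71 to 7.91 in LKO livers, with no overlap. Its log2 fold change was 2.06 (SE 0.407, adjusted p = 0.0387 by edgeR, higher in 6 of 6). The 8 genes had a median log2 fold change of 0.38, and 5 of them had an unadjusted p under 0.05, all higher, against 11.7% of all genes in either direction. Among them were *Scd1* (0.64, adjusted p = 0.136 by edgeR and 0.0212 by DESeq2) and *Fads1* (0.34, adjusted p = 0.1525 by edgeR and 0.0425 by DESeq2). With 1 liver left out, *Pnpla3* stayed between 1.87 and 2.48 and was called only without WT replicate 2 (adjusted p = 0.0453), WT replicate 3 (0.00675) or LKO replicate 5 (0.0361). Without any of the other 9 livers the call was lost: the adjusted p by edgeR was 0.0930, 0.105, 0.102 and 0.0706 without WT replicates 1, 4, 5 and 6, and 0.0773, 0.0732, 0.0525, 0.0591 and 0.0628 without LKO replicates 1, 2, 3, 4 and 6. Without WT replicate 3, *Scd1* was called as well (0.85, adjusted p = 0.00263 by edgeR). Of the same 8, 7 had a positive slope on *Fasn* at an unadjusted p under 0.05, against 4.60% of all genes. On *Srebf1*, 1 had a positive and 3 had a negative slope at an unadjusted p under 0.05, against 15.0% of all genes. Their median slope on *Srebf1* was −0.32, with −1.14 for *Pnpla3* (unadjusted p = 0.0406 by edgeR), and 0 were called.

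None of the genes in the other 10 lists was called by edgeR with the filter and model used throughout, or by limma voom. DESeq2 called *Irs1* (adjusted p = 0.00676), *Tkfc* (0.0135) and *Dlat* (0.00417). By edgeR, *Dlat* was called with no filter (adjusted p = 0.0292), and *Dlat* (0.0440) and *Irs1* (0.0446) with the replicate number as a block. The counts at an unadjusted p under 0.05 given next for each list stand against 11.7% of all genes. The medians of these lists ran from −0.17 for carbohydrate-responsive genes to 0.05 for genes that carry carbon to acetyl-CoA. The latter median was 0.03 without WT replicate 6 and 0.09 without WT replicate 3. Without WT replicate 3 the carbohydrate-responsive genes were at −0.05, genes of insulin signalling were the lowest at −0.11, and the median of the fasting response went from −0.08 to 0.03. Of the 6 genes of sterol sensing, which hold *Srebf2* and the genes that retain and cleave SREBP proteins, 2 were lower at an unadjusted p under 0.05, *Srebf2* (log2 fold change −0.43, adjusted p = 0.165 by edgeR, and called without LKO replicate 1 at −0.54, adjusted p = 0.0305) and *Mbtps1* (−0.14), and *Mbtps2* was at −0.11. Of 9 genes of insulin signalling, 2 were lower at an unadjusted p under 0.05, *Irs1* (−0.43, adjusted p = 0.0797 by edgeR) and *Rptor* (−0.14), and *Mtor* was at −0.15. Of 10 nuclear receptors and partners of lipogenic factors, 1 was, *Rxra* (−0.20), and *Thrb* and *Mlxip* were at −0.19 and 0.19. Of 8 carbohydrate-responsive genes, 1 was, *Tkfc* (−0.43, adjusted p = 0.103 by edgeR), whereas *G6pc* and *Slc2a2* were at −0.41 and −0.29. Of these, *Thrb* was at −0.12 without LKO replicate 1 and *Slc2a2* at −0.19 without WT replicate 3.

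Of 14 genes that carry pyruvate, citrate and acetate to acetyl-CoA, 2 were higher at an unadjusted p under 0.05, *Dlat* (log2 fold change 0.46, adjusted p = 0.0660 by edgeR) and *Cs* (0.25), both higher in 6 of 6. *Dlat* was called without WT replicate 3 (0.54, adjusted p = 0.00710 by edgeR) and without LKO replicate 6 (0.50, adjusted p = 0.0469 by edgeR). *Acss1* was at 0.83 but below 1 CPM in every group mean. Of 6 genes of cytosolic NADPH supply, 2 were higher at an unadjusted p under 0.05, *Me1* (0.58, adjusted p = 0.249 by edgeR, and called without WT replicate 3 at 0.82, adjusted p = 0.00902) and *Pgd* (0.38, and 0.20 without LKO replicate 1), and *Mthfd1* was at −0.16. Of 11 regulators and cofactor enzymes of acetyl-CoA carboxylase and fatty acid synthase, 1 was higher, *Hlcs*, which attaches biotin to both carboxylases (0.34, adjusted p = 0.218 by edgeR), and *Stk11* and *Mid1ip1* were at −0.13 and −0.33. Of 7 genes of mitochondrial fatty acid synthesis, 1 was lower, *Oxsm* (−0.16), and *Ndufab1* and *Cbr4* were at 0.09 and −0.04. Of 11 genes of the fasting response, *Pdk4* was higher (1.06, and 0.52 without LKO replicate 1) and *Ppara* lower (−0.21) at an unadjusted p under 0.05, and *Cyp4a14* was at 1.60 with a SE of 0.788, 2.80 without WT replicate 3 and 1.02 without LKO replicate 5. Of the 13 clock genes, the lowest p belonged to *Cry1* (−0.31), *Per1* (−0.25) and *Clock* (−0.09), of which *Per1* was at −0.09 without WT replicate 3 and *Clock* at −0.04 without WT replicate 1. With 1 liver left out, *Acss1* was at 1.38 (without WT replicate 6), *Mthfd1* at −0.10 (without LKO replicate 1), *Ndufab1* at 0.05 (without WT replicate 4) and *Cbr4* at −0.02 (without LKO replicate 6).

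Whole liver was sequenced, so fewer cells of a type and less RNA per cell cannot be told apart. The summed CPM of 7 Kupffer cell and macrophage markers, with *Clec4f* the most abundant, was 119 ± 10.6 in WT and 160 ± 30.4 in LKO livers (SD, n = 6), above the WT mean in 6 of 6. All 7 were above 0, with *Clec4f* at 0.39, *Vsig4* at 0.44 and *Cd5l* at 0.49 on the log2 scale. Of the 7, 6 had an unadjusted p under 0.05 by edgeR, against 11.7% of all genes in either direction. Stellate cell markers summed to 208 ± 31.8 in WT and 243 ± 32.0 in LKO livers, with *Dcn* the most abundant, and *Lrat*, *Dcn* and *Rgs5* were at 0.47, 0.24 and 0.17 on the log2 scale. *Rgs5* was at 0.11 without WT replicate 2. Endothelial markers summed to 207 ± 19.7 and 223 ± 18.5, with *Ptprb* the most abundant, and *Lyve1*, *Ptprb* and *Cdh5* were at 0.77, 0.13 and 0.14. *Ptprb* was at 0.08 without LKO replicate 3 and *Cdh5* at 0.05 without LKO replicate 1. None of the genes in these 3 lists was called by edgeR with all livers, and *Lyve1* was called without LKO replicate 4 (0.89, adjusted p = 0.0264 by edgeR). At an unadjusted p under 0.05 by edgeR, 1 of the 7 stellate and 1 of the 7 endothelial markers were higher.

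Adipocyte markers bear on these genes because fat tissue also makes fatty acids. Of 7 adipocyte markers, 4, *Adipoq*, *Plin1*, *Lep* and *Retn*, had at most 3 reads in every liver. The sum over the list was 51.2 CPM in LKO replicate 1, mostly from *Cidec*, which fatty hepatocytes also express, and between 12.9 and 23.1 in the other 11 livers. LKO replicate 1 was also the highest in cholangiocyte markers, led by *Spp1*, with 129 CPM against 34.2 to 63.9 in the other livers. Of the cholangiocyte markers, *Sox9*, *Epcam* and *Krt7* were at −0.62, 0.51 and −0.46 on the log2 scale, and *Krt7* was at −0.29 without WT replicate 1. Of these 6 markers, 1, *Sox9*, had an unadjusted p under 0.05 by edgeR, against 11.7% of all genes. Of the adipocyte markers, *Cidec*, *Adrb3* and *Cfd* were at 1.01, 0.28 and 0.09, with *Adrb3* at 0.11 without WT replicate 2. Without LKO replicate 1, the log2 fold change was 0.61 for *Acacb*, 0.23 for *Fasn*, 0.08 for *Cidec*, −0.185 for *Cfd* and 0.17 for *Epcam*. The part of these cells in the values of the 10 genes was otherwise not tested.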

How the data were processed

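RNA from whole livers of 6 WT and 6 LKO mice was sequenced after KAPA mRNA HyperPrep library preparation. The submitters' processing notes name FastQC 0.11.15, Picard, Trimmomatic 0.36, HISAT2 2.1.0 and HTSeq 0.6.1, with Ensembl release 93, and also Cufflinks, edgeR and limma. The authors deposited raw read counts per gene for 54232 identifiers, of which 54079 were found in GENCODE release M21 of GRCm38, used for positions and exon lengths. Genes whose count exceeded 2 in 6 or more livers were kept and tested by edgeR 4.0.16 in R 4.3.3 (TMM scaling, quasi-likelihood test, Benjamini-Hochberg adjustment over all genes tested, threshold 0.05, prior count 0.5 for log2 CPM). The same fit with log2 CPM of *Srebf1*, centred within genotype, gave slopes. Count ratios were compared by exact two-sided permutation tests over all assignments of livers to groups, adjusted over 6 ratios. Groups were taken from the labels, and no liver was left out. The code was tested on simulated data.

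Alternatives were RLE or upper-quartile scaling, scaling without the 20 most abundant genes, no filter, filterByExpr, at least 10 counts in every liver, the replicate number as a block, DESeq2 1.42.0, limma 3.58.1 (voom), *Srebf1* as a further term, 0.5 added to the counts of a ratio, and each liver left out. The slopes on *Fasn* and the fit with *Dbp* as a further term were chosen after seeing the data. The 10 genes and the lists (11 of pathways, 7 of cell markers) were chosen with earlier results of these data known. Genes named were all 10, *Marchf6*, the 3 with the lowest p of each list and any called, and the 5 with the lowest p among positive slopes on *Srebf1*. Other genes (*Dbp*, *Arntl*, *Spp1*, *Ttr*, *Cyp2e1*, *Lpin1*, *Tmc7*, *Rusc2* and the 4 adipocyte genes with few reads) were named after their values were seen. The result of 1 marker list is not reported here. Promoter windows came from the RefSeq set for GRCm38.p6. Total counts of 14860414 to 22111926 per liver set the precision of each count.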

Additional observations from a re-analysis of the deposited data

Results flagged for a closer look

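Among the 6 LKO livers, the log2 ratio of *Thrsp* to *Mid1ip1* reads was lowest in replicate 3, at a distance from the next liver of 0.633 of the range of the group, where Dixon's critical value for 6 samples is 0.625. The liver had 8.76 *Thrsp* reads per *Mid1ip1* read, and the other LKO livers had 12.1 to 14.5. Of 36 groups searched this way, 1 passed, and chance alone passes about 1 in 20 groups, which is 1.80 of 36. No explanation was tested.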

How the results depend on the processing

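Of the 10 genes, 9 kept the direction of their log2 fold change under every scaling, filter and tool tried and with each liver left out, and the cause of each change below was not tested unless said. *Mlycd*, at −0.00, turned to 0.016 with upper-quartile scaling, 0.001 without the 20 most abundant genes in the scaling, 0.017 with no filter, 0.005 with filterByExpr and 0.009 with at least 10 counts in every liver, and lay between −0.034 and 0.057 with 1 liver left out. The 75 genes called between the genotypes were 114 with no filter, 351 with DESeq2 and 180 with *Dbp* as a further term, an alternative chosen after seeing the data, and 38 to 132 with 1 liver left out. Of the 10 genes, 1 was called with DESeq2 and 0 to 1 with 1 liver left out. The 1 gene called in the pathway lists became 2 with no filter, 6 with DESeq2, 3 with the replicate block, 0 with at least 10 counts in every liver, where *Pnpla3* is not tested, and 0 to 4 with 1 liver left out. The study states no pairing by replicate number. Over all genes tested, same-numbered livers correlated at r = 0.115, 0.135, −0.065, 0.104, 0.040 and 0.106 after removal of the group means, and only those numbered 1 and 4 correlated best with their own number. Livers numbered 1 and 2 of both groups share low *Dbp* (12.1 to 21.7 CPM against 60.8 to 76.8). *Srebf1* to *Mlxipl* was higher in LKO livers in 6 of 6 same-numbered pairs, a count that rests on this unstated pairing. Without pairs the groups overlapped, and the exact permutation test gave an adjusted p of 0.133. With the replicate block, slopes on *Srebf1* were called for 12 genes in place of 62, and slopes on *Fasn* for 2 genes in place of 5 and for 0 of the 9 other genes in place of 2. With 1 liver left out, slopes on *Srebf1* were called for 0 to 107 genes and slopes on *Fasn* for 1 to 9 genes, with 0 to 3 of the 9. For *Acacb* to *Acaca*, sign flips of same-numbered pairs gave the same log2 difference of 0.47 with an exact adjusted p of 0.0938, against a smallest unadjusted p of 0.03125 that 64 flips can give, and the difference was 0.40 to 0.52 with 1 liver left out. The other log2 ratios with 1 liver left out ran from 0.51 to 0.70 for both carboxylases to *Mlycd*, from 0.61 to 1.24 for *Thrsp* to *Mid1ip1*, from 0.29 to 0.48 for *Srebf1* to *Mlxipl*, from −0.187 to 0.044 for *Acly* to *Acss2* and from −0.00 to 0.16 for *Fasn* to *Acaca*. The depth of 14860414 to 22111926 counts limits genes as low as *Pnpla3* more than the 10 genes.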
